A study of Mus musculus with 12 samples.

Results

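The Irf8 locus was described through every open chromatin region of the ATAC-seq count table whose peak lay between 120660000 and 120840000 on mouse chromosome 8 (GRCm38), a window of 180 kb. This gave 47 regions of 121336 in the table. The window runs from the neighbouring genes Emc8 and Cox4i1 on the left, across Irf8 itself (plus strand, 120736358 to 120756694, ENSMUSG00000041515.10), to gene-free sequence on the right. Regions are named by the distance of their middle from the Irf8 start site, so that the +56.6 kb region lies that far downstream of it. Within the window they were taken by position and not by any measured value. The window, like the landmarks and gene lists used below, had been chosen with earlier results of these data known.

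Chromatin accessibility was measured by ATAC-seq, in which a transposase cuts open DNA, in sorted bone marrow cells of C57BL/6 littermates aged 8 to 12 weeks. LSK cells (Lin- Sca-1+ c-Kit+) contain the stem cells and early progenitors, and GMP cells (Lin- Sca-1- c-Kit+ CD16/32+) are the progenitors of granulocytes and monocytes. Cells came from wild-type (WT) mice or from UREd/d mice, called URE here, which lack an upstream enhancer of Spi1 on both alleles in every cell of the body. Spi1 encodes the transcription factor PU.1. Each of the 4 groups (WT-LSK and WT-GMP, URE-LSK and URE-GMP) held 3 libraries, 12 in all, from 3 mice per genotype and cell type.

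IRF8 is a transcription factor of blood cells that directs progenitors to monocytes and dendritic cells and restrains the neutrophil fate. It binds DNA poorly alone and often pairs with PU.1 on composite ETS-IRF elements. The gene is read under the control of distal enhancers, of which those known at -50, +32, +41 and +56 kb have been tied to myeloid progenitors and monocytes (-50 and +56), to plasmacytoid dendritic cells and their E proteins (+41) and to the BATF3-dependent upkeep of Irf8 in classical dendritic cells (+32). The nearest regions of the table to these landmarks were the -50, +32.5 and +56.6 kb regions. No region lay within 2500 bp of the +41 kb landmark, the nearest being the +44.2 kb region at 3200 bp from it.

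The sequences of the Irf8 promoter and of 4 distal or intronic regions are shown because the results turn on them. The first holds the 250 bases before the Irf8 start site as given by RefSeq for GRCm38, and the others the central 300 bases of each region. Capitals mark matches on either strand to 4 motifs searched as fixed letters, namely GAGGAAGT for PU.1, TTGCNNAA for CEBP, AACCACA for RUNX and TGANTCA for AP-1.
Irf8 promoter (chr8:120736108-120736357, plus strand): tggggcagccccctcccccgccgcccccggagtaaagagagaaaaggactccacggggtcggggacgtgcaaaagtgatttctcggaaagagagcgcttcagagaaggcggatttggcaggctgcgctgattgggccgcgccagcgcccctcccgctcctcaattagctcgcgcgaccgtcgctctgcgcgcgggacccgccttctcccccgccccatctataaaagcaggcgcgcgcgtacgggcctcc
-50 kb region (chr8:120686172-120686471, plus strand): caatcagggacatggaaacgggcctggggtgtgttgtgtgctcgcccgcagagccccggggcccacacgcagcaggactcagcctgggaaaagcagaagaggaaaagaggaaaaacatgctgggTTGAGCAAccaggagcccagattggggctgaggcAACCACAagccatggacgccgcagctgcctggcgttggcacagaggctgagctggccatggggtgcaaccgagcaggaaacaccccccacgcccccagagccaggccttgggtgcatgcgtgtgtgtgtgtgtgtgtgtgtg
+4.9 kb region (chr8:120741069-120741368, plus strand): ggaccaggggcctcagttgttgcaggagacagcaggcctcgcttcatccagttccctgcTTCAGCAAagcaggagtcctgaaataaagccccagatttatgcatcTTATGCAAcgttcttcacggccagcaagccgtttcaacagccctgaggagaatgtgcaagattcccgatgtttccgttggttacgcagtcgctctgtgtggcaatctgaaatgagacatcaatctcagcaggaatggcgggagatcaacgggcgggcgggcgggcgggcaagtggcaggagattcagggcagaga
+56.6 kb region (chr8:120792773-120793072, plus strand): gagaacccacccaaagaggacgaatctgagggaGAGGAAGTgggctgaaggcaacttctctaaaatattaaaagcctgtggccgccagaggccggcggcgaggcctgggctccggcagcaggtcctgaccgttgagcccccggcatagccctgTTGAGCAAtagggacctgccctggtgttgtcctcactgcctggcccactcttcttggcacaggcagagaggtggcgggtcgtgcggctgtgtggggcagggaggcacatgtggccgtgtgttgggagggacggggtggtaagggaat
+86.9 kb region (chr8:120823113-120823412, plus strand): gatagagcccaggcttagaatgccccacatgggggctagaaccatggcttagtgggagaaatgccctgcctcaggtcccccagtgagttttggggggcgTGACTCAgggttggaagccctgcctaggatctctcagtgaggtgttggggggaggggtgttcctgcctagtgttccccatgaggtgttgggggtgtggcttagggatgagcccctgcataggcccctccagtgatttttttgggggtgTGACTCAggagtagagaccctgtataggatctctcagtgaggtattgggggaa

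The Irf8 promoter stretch held none of the 4 motifs. The -50 kb region held 1 RUNX match and, over its whole length, 2 CEBP matches, and it overlapped the annotated transcript Gm33142. Of all regions within 10% of its length, 31.4% held a CEBP match and 23.1% a RUNX match. The +56.6 kb region held 1 PU.1 match and 1 CEBP match, found in 12.4% and 29.5% of regions of like length. The +4.9 kb region, which lies between the second and the third exons of the main coding transcript and inside an exon of a retained-intron transcript, held 2 CEBP matches, where 19.9% of like regions held any. In the +86.9 kb region 2 AP-1 matches were found, where 20.5% of like regions held any.

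Over all 47 regions, 6 held a PU.1 match (10.5% of all regions of the table held one), 9 a CEBP match (20.5%), 4 a RUNX match (17.3%) and 3 an AP-1 match (15.1%). An interferon response element was matched in 3 regions, the +32.5 kb region among them (6.39% of all regions), and an ETS-IRF composite in 0 (5.70%). The E-box CANNTG, the short motif bound by E proteins, was matched in 40 regions (84.6%). The 6 regions with a PU.1 match, at +24.1, +27.1, +47.6, +56.6, +62.2 and +88.5 kb, all lay downstream of the gene. No printed matches overlapped. These matches describe letters only and do not show binding.

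Total counts per library ranged from 23072701 to 62204826, so that 3 counts stood for between 0.0520 and 0.126 CPM (counts divided by library totals that TMM factors had adjusted). Over the 5 regions 12 to 17 kb upstream of the Spi1 start codon, where the deleted element lies, summed CPM ran from 51.8 to 86.9 in the 6 WT libraries and from 4.17 to 7.16 in the 6 URE libraries. The start sites of GMP marker genes (Mpo, Elane, Prtn3, Ctsg, Ms4a3 and Csf3r) summed to 447 to 595 CPM in WT-GMP libraries, to 742 to 829 CPM in URE-GMP libraries, and to 73.5 to 133 CPM in the LSK libraries. In GMP this sum was mostly Mpo, with mean CPM of 337 in WT and 538 in URE. Ms4a3 was lower in URE-GMP (11.8 against 16.9), and Prtn3 was nearly level (73.5 against 69.5). Elane, Ctsg and Csf3r were higher in URE-GMP. The start sites of 6 monocyte and dendritic markers summed to 101 to 113 CPM for WT-GMP against 72.2 to 87.2 CPM for URE-GMP, with no overlap between the genotypes. Among LSK libraries, start sites of erythroid and megakaryocyte markers summed to 108 to 128 CPM for WT against 154 to 170 for URE, those of LSK markers to 358 to 367 against 379 to 438, and those of B cell markers to 27.9 to 31.8 against 36.3 to 38.9, each without overlap. The B cell sums were apart in GMP too (25.5 to 33.8 CPM for WT, 36.0 to 38.3 for URE), whereas the summed GMP markers and the summed monocyte and dendritic markers overlapped between the genotypes of LSK. In LSK the monocyte and dendritic sum was mostly Klf4, with mean CPM of 47.2 in WT and 63.5 in URE. The mean was lower in URE-LSK than in WT-LSK at Csf1r (0.174 against 3.83), Siglech (0.0452 against 4.59), Ly86 (0.128 against 0.975) and Cx3cr1 (3.97 against 15.4). At Ccr2 it was 0.249 against 0.257. In bulk samples, fewer cells with an open region and less opening per cell cannot be told apart, and the part that cell composition had in the results below was not tested.

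A region was called when edgeR's quasi-likelihood test gave a Benjamini-Hochberg adjusted p under 0.05 over all regions of the table and a log2 fold change beyond 1 in size. In LSK, 14 of the 47 regions were called lower in URE and 1 was called higher, together 31.9%, where 37.5% of all regions were called (23.9% lower and 13.6% higher). In GMP, 11 were called lower and 3 higher, together 29.8%, against 39.7% of all regions (24.1% lower and 15.6% higher). The share of called regions in the window was thus no greater than the background in either cell type. The median log2 fold change of the 47 regions was -0.20 in LSK and -0.27 in GMP, beside 0.14 and 0.06 over all regions. Under loess offsets the LSK median of the window turned to 0.10, and the LSK calls split into 11 lower and 6 higher; with offsets for GC content they split into 12 lower and 5 higher. In GMP the window median came to -0.02 under loess offsets, with 7 regions lower and 4 higher, while scaling by library size alone gave 15 lower and 3 higher.

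The losses lay mostly on the downstream side. Of the 21 regions beyond the end of the gene, 10 were called lower in LSK and 7 in GMP. Of the 16 regions between Cox4i1 and the promoter, 2 were called lower in LSK and 1 in GMP, and of the 8 at the promoter and in the gene body, 1 and 2. Over all regions of the table, 23.9% were called lower in LSK and 24.1% in GMP. The split by side was not tested. Across the cell types, 9 regions were called lower in both, 5 in LSK alone and 2 in GMP alone, while 27 were called in neither. As shares of the window these were 19.1%, 10.6%, 4.26% and 57.4%, beside 18.7%, 5.11%, 5.22% and 50.1% of all regions, so joint losses were about as frequent here as in the whole table. Of the others, 3 were called higher in GMP alone (6.38%, beside 7.12% of all regions) and 1 in LSK alone (2.13%, beside 5.06%). By edgeR 0 regions of the window were called higher in both (8.45% of all regions), although 1 was in DESeq2, and 4 were higher in both at an unadjusted edgeR p under 0.05. Calls in opposite directions numbered 0 in edgeR and in DESeq2 (0.0717% of all regions were lower in LSK and higher in GMP, 0.0882% the reverse), and 1 region, at -20.9 kb, moved oppositely at an unadjusted p under 0.05. Those called lower in both lay at -71.6, -16.3, +9.1, +27.1, +30.5, +32.5, +47.6, +48.1 and +75.8 kb. The LSK and GMP contrasts compared separate libraries, but all 12 libraries were fitted together and shared an estimate of the spread. The calls in the 2 cell types were therefore not independent. Whether LSK and GMP cells came from the same mice is not in the labels.

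**Figure D1:**
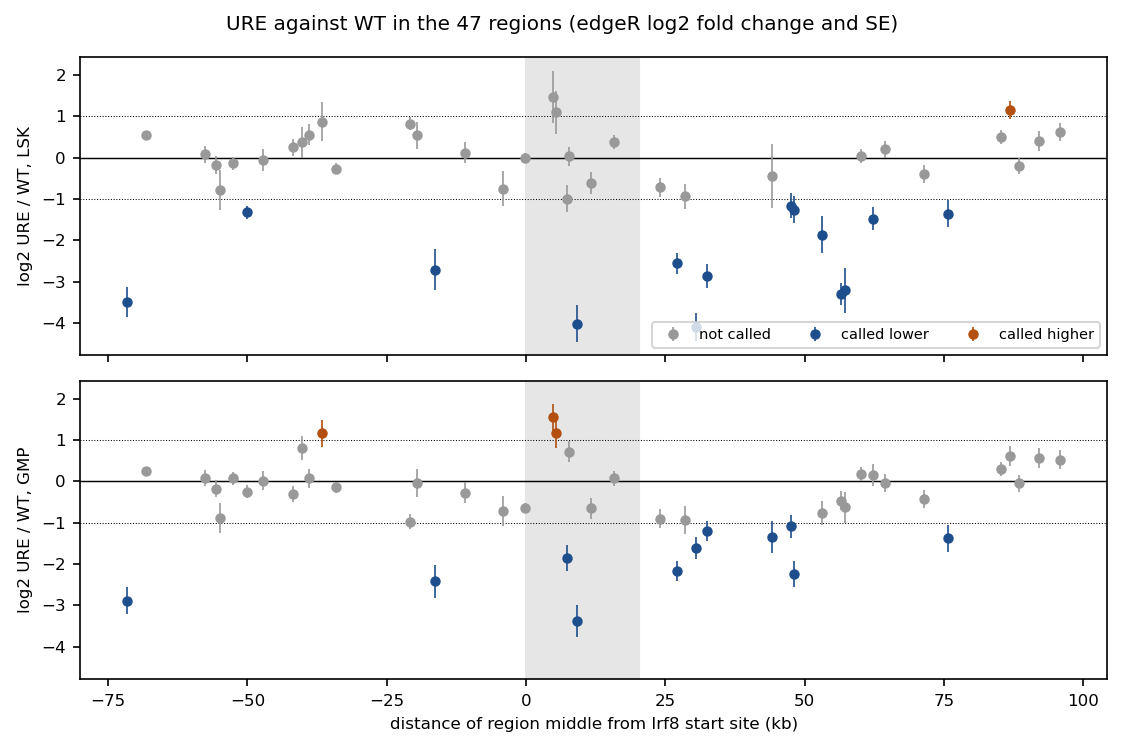
The log2 fold change of URE against WT (y axis, edgeR estimate with SE bars) is plotted for each of the 47 regions against its distance from the Irf8 start site in kb (x axis), in LSK above and in GMP below, with the gene shaded and dotted lines at 1 and -1. The points of the +56.6 and -50 kb regions lie at -3.30 and -1.32 in LSK and at -0.47 and -0.25 in GMP.

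The Irf8 promoter, which covers the start site and the 5' UTR (120735845 to 120736710), was among the 27 regions called in neither cell type. Its CPM was 22.8, 19.3 and 17.9 in WT-LSK against 20.4, 20.0 and 19.7 for URE-LSK, so the groups overlapped and their means were alike (20.0 CPM each). In GMP it was 32.2, 26.9 and 24.6 in WT and 17.5, 19.6 and 16.5 in URE, without overlap. The log2 fold change was 0.00 ± 0.12 (SE) in LSK (edgeR adjusted p = 0.999) and -0.64 ± 0.12 in GMP (edgeR adjusted p = 0.000279), the latter short of the fold threshold. The sign of the LSK value is open, since it was -0.12 with library size scaling alone and -0.13 with GC offsets.

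At -50 kb, WT-LSK libraries had 16.5, 18.2 and 15.5 CPM and URE-LSK libraries 5.23, 5.64 and 9.12. All 3 URE-LSK values lay below the WT values, with replicate 3 the highest of them, and the log2 fold change was -1.32 ± 0.16 (edgeR adjusted p = 3.78e-06). In GMP the region had 56.4, 50.0 and 49.1 CPM in WT and 41.3, 47 and 42.4 in URE. These groups did not overlap either, but the log2 fold change was only -0.25 ± 0.15 (edgeR adjusted p = 0.157), and it came under 0.05 with loess offsets (-0.39, adjusted p = 0.0373). The difference of the genotype effects between the cell types, GMP minus LSK, was 1.07 ± 0.22 on the log2 scale (edgeR adjusted p = 0.00362).

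The same contrast between the cell types was wider at +56.6 kb. WT-LSK libraries had 14.0, 17.3 and 17.3 CPM there, and URE-LSK libraries 0.738, 1.51 and 2.63. That was a log2 fold change of -3.30 ± 0.27 (edgeR adjusted p = 6.95e-08), the smallest p of any LSK loss in the window. In GMP the libraries had 31.7, 40.9 and 39.9 CPM in WT and 24.2, 29.7 and 27.5 in URE, again without overlap but close, with a log2 fold change of -0.47 ± 0.23 (edgeR adjusted p = 0.0831). This last p fell under 0.05 in several other settings, for instance 0.0316 with the replicate number as a block, whereas the change stayed under the fold threshold. The effects in GMP and LSK differed by 2.83 ± 0.35 (edgeR adjusted p = 0.000103). The small +57.2 kb region beside it, with 5, 0 and 8 counts in the URE-LSK libraries, showed a difference of 2.58 ± 0.67 (edgeR adjusted p = 0.0150).

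At +32.5 kb, the region nearest to the dendritic cell enhancer, accessibility was low in all groups and lower in URE in both cell types. It had 3.65, 3.39 and 3.04 CPM in WT-LSK against 0.286, 0.754 and 0.363 for URE-LSK, a log2 fold change of -2.87 ± 0.29 (edgeR adjusted p = 5.27e-07). In GMP it had 7.15, 6.23 and 6.13 CPM in WT and 2.63, 3.38 and 2.37 in URE, a change of -1.21 ± 0.24 (edgeR adjusted p = 0.000400). The loss was thus larger in LSK, and the difference of 1.66 ± 0.37 between the cell types passed the test (edgeR adjusted p = 0.00690). Its neighbour at +30.5 kb had the largest LSK loss of the window, from 4.99, 6.12 and 5.05 CPM to 0.0952, 0.586 and 0.278 CPM (log2 fold change -4.10 ± 0.35, edgeR adjusted p = 8.74e-08). In GMP the +30.5 kb region went from 9.16, 8.69 and 7.95 CPM to 2.63, 3.31 and 2.42 CPM (-1.62 ± 0.27, edgeR adjusted p = 9.48e-05), and the effects differed by 2.49 ± 0.44 (edgeR adjusted p = 0.00141). The +30.5 and +57.2 kb regions, and those at +9.1, +27.1, +62.2, -16.3, -36.6, +5.3, -34.2 and +60.1 kb, were chosen for mention after their values had been seen.

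Losses of like size in LSK and GMP were seen elsewhere. The -71.6 kb region, in an intron of Emc8, a gene for a membrane protein insertase subunit, had 4.41, 3.96 and 3.24 CPM in WT-LSK against 0.309, 0.502 and 0.235 for URE-LSK. In GMP it had 4.85, 7.32 and 5.90 CPM in WT and 0.560, 1.30 and 0.533 in URE. The log2 fold changes were -3.49 ± 0.36 and -2.89 ± 0.32 (edgeR adjusted p = 7.47e-07 and 1.93e-06), with no call for their difference (0.60 ± 0.48, edgeR adjusted p = 0.442). Inside Irf8, the +9.1 kb region fell to 1, 3 and 8 counts in the URE-LSK libraries from 62, 35 and 85 in WT-LSK, a log2 fold change of -4.02 ± 0.44, and changed by -3.38 ± 0.38 in GMP (edgeR adjusted p = 1.08e-06 and 2.04e-06). The +27.1 kb region, with a PU.1 match, changed by -2.56 ± 0.25 and -2.18 ± 0.24, and the -16.3 kb region by -2.71 ± 0.49 and -2.42 ± 0.40. For none of these did the genotype effect differ between the cell types at an edgeR adjusted p under 0.05, which does not show that the effects were equal.

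**Figure D2:**
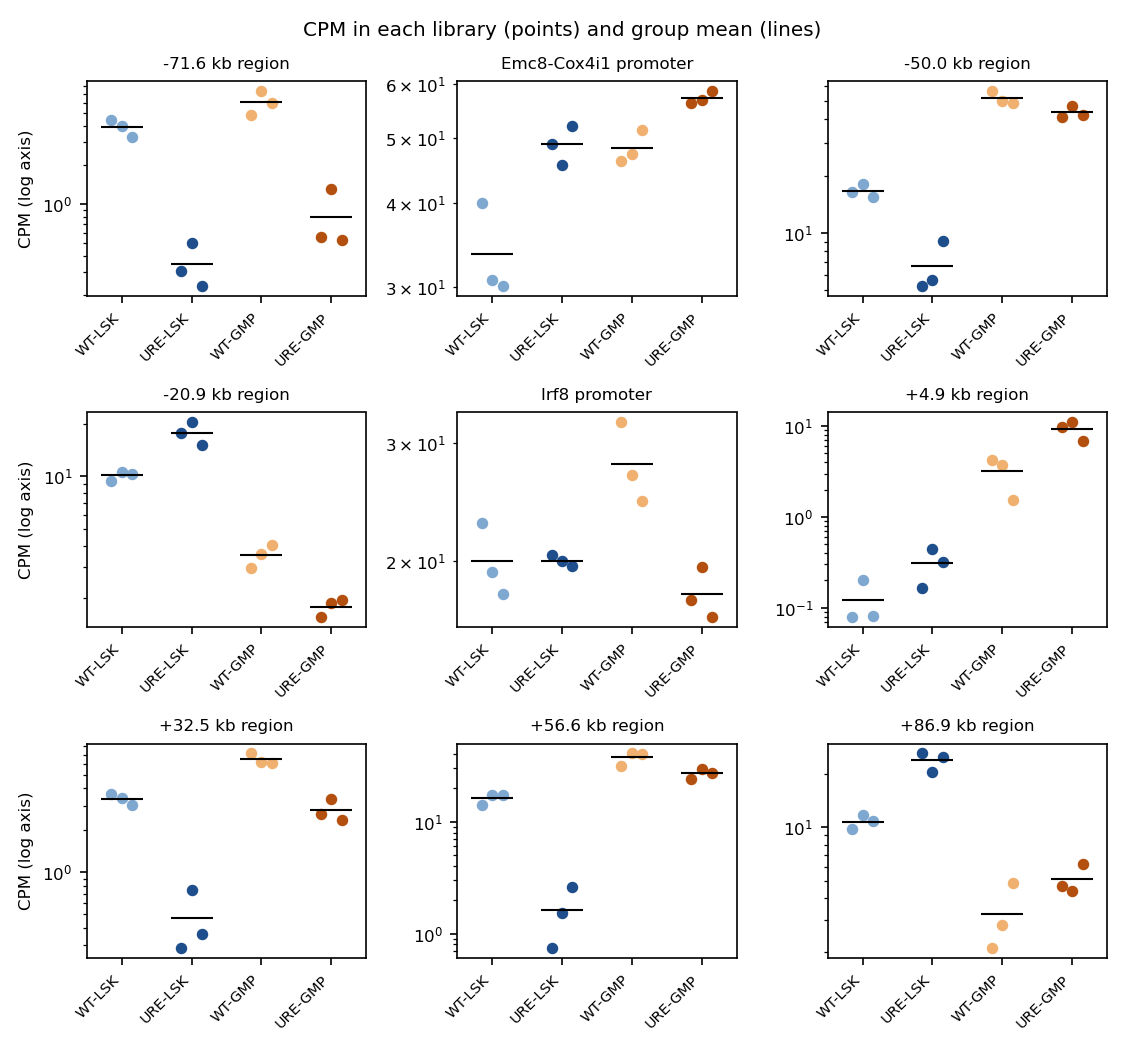
CPM on a log axis is plotted for each library (points) and as group mean (lines) in 9 regions of the window, with the 4 groups on the x axis and 3 libraries in each. The URE-LSK points of the +32.5 and +56.6 kb regions lie far below the other groups, while at the Irf8 promoter those of WT-LSK and URE-LSK overlap.

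A few regions were more open in URE. The +4.9 kb region, with its 2 CEBP matches, had 4.27, 3.76 and 1.52 CPM in WT-GMP against 9.71, 11 and 6.83 for URE-GMP. The groups were apart, with a log2 fold change of 1.55 ± 0.33 (edgeR adjusted p = 0.000697). In LSK the same region was nearly closed, with 3, 5 and 4 counts in WT and 7, 16 and 15 in URE, and its change of 1.47 ± 0.64 missed the threshold (edgeR adjusted p = 0.0604), although it passed in DESeq2 (1.53, adjusted p = 0.0193). The adjacent +5.3 kb region (1.17 ± 0.36, edgeR adjusted p = 0.0102) and the -36.6 kb region (1.16 ± 0.33, edgeR adjusted p = 0.00662) were also called higher in GMP.

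In LSK the single region called higher was that at +86.9 kb, with 2 AP-1 matches. It had 9.74, 11.7 and 10.8 CPM in WT-LSK against 26.1, 20.6 and 24.8 for URE-LSK (log2 fold change 1.15 ± 0.22, edgeR adjusted p = 0.000389). In GMP it had 2.09, 2.81 and 4.89 CPM in WT and 4.71, 4.39 and 6.20 in URE, and these groups overlapped (0.62 ± 0.24, edgeR adjusted p = 0.0342, under the fold threshold). The -20.9 kb region, which also held 2 AP-1 matches, moved in opposite directions. From 9.39, 10.6 and 10.3 CPM in WT-LSK it went to 17.8, 20.4 and 15.2 in URE-LSK, and from 2.97, 3.57 and 4.01 CPM in WT-GMP to 1.55, 1.87 and 1.94 in URE-GMP. The changes were 0.82 ± 0.16 in LSK and -0.98 ± 0.18 in GMP (edgeR adjusted p = 0.000432 and 0.000186), each short of the fold threshold, and their difference was -1.80 ± 0.24 (edgeR adjusted p = 0.000170).

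The neighbouring promoter shared by Emc8 and Cox4i1, a gene for a subunit of the respiratory chain, was wide open in all groups. It is described as a nearby promoter of other genes. In LSK it had 40.0, 30.7 and 30.1 CPM in WT libraries against 49.0, 45.6 and 52.1 in URE libraries. In GMP the values were 46.2, 47.3 and 51.4 CPM against 56.2, 56.9 and 58.6, so that URE was the higher group in each cell type without overlap. The log2 fold changes were 0.54 ± 0.10 and 0.24 ± 0.10 (edgeR adjusted p = 0.000248 and 0.0435), both higher in URE without a call. With GC offsets they were 0.23 and 0.08, with adjusted p = 0.0817 and 0.543.

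The effect of genotype differed between GMP and LSK by the call rule in 7 of the 47 regions (14.9%), against 14.0% of all regions. In 6 of them the value was higher, that is, the loss was smaller or absent in GMP (8.96% of all regions), and in 1, at -20.9 kb, it was lower (5.03%). The 6 were the -50, +30.5, +32.5, +56.6, +57.2 and +62.2 kb regions. The +62.2 kb region, with a PU.1 match, fell by 1.48 on the log2 scale in LSK and had 0.15 ± 0.26 in GMP, a difference of 1.63 ± 0.38 (edgeR adjusted p = 0.00851). The Irf8 promoter also differed by adjusted p, with -0.64 ± 0.17 (edgeR adjusted p = 0.0180), in the other direction and short of the fold threshold; without WT-LSK replicate 3 it was -0.50 with an adjusted p of 0.0534.

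The step from LSK to GMP was then read within each genotype. These 2 contrasts shared their libraries with the genotype contrasts and are given side by side with them. In WT, GMP had 15 regions called higher than LSK and 4 called lower (40.4% of the 47), where 37.8% of all regions were called, 21.0% higher and 16.8% lower. In URE these numbers were 18 and 4 (46.8%), against 49.1% of all regions, 27.6% higher and 21.6% lower. In an alternative the replicate number was a block over all 12 libraries, so that same-numbered libraries of every group shared a term. No call of the 47 regions changed in it for the step in WT or in URE.

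The distal enhancers gained accessibility at this step in both genotypes, and by more in URE, where they started lower. For the -50 kb region the log2 change from LSK to GMP was 1.63 ± 0.15 in WT and 2.70 ± 0.16 in URE (edgeR adjusted p = 6.19e-07 and 5.07e-09). For the +56.6 kb region it was 1.21 ± 0.23 in WT and 4.04 ± 0.27 in URE (edgeR adjusted p = 0.000342 and 1.00e-08). For the +32.5 kb region it was 0.95 ± 0.24 and 2.61 ± 0.29 (edgeR adjusted p = 0.00297 and 8.31e-07), the former short of the fold threshold. The promoter rose by less, 0.48 ± 0.12 in WT (edgeR adjusted p = 0.00320), and in URE its value of -0.16 ± 0.12 did not pass the test (edgeR adjusted p = 0.247). The +4.9 kb region opened most, by 4.82 ± 0.50 in WT and 4.89 ± 0.41 in URE (edgeR adjusted p = 1.46e-06 and 5.83e-08). Closing was steepest at -20.9 kb (-1.51 ± 0.17 and -3.31 ± 0.18, edgeR adjusted p = 2.84e-06 and 2.95e-09) and at +86.9 kb (-1.69 ± 0.24 and -2.23 ± 0.23, edgeR adjusted p = 2.31e-05 and 4.80e-07). At -71.6 kb the step was called in URE alone (0.65 ± 0.29 in WT, 1.25 ± 0.39 in URE, edgeR adjusted p = 0.0648 and 0.00945), and without URE-GMP replicate 2 the URE value was 0.68 with an adjusted p of 0.116.

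Levels of different regions were compared as CPM per kb of region length. In WT-GMP the Emc8-Cox4i1 promoter had the most, 48.5 ± 2.74 (SD, n = 3), followed by the -50 kb region with 47.6 ± 3.63 and the +56.6 kb region with 46.7 ± 6.26. These 3 lay within each other's spread, and the Irf8 promoter came next, at rank 4, with 32.2 ± 4.47. In URE-GMP the -50 and +56.6 kb regions kept the second and the third place, with 40.0 ± 2.77 and 33.8 ± 3.44, and the promoter had rank 8 with 20.7 ± 1.83.

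In WT-LSK the order was led by the Emc8-Cox4i1 promoter (33.7 ± 5.59), the -34.2 kb region, the +60.1 kb region and the Irf8 promoter (23.1 ± 2.90). The +56.6 kb region had rank 5 with 20.2 ± 2.33 CPM per kb, within the spread of the promoter, and the -50 kb region rank 12 with 15.4 ± 1.29. In URE-LSK the +56.6 kb region dropped to rank 33 of 47 with 2.02 ± 1.18 and the -50 kb region to rank 22 with 6.13 ± 1.96. The -34.2 and +60.1 kb regions were called in neither genotype contrast, with log2 fold changes of -0.27 ± 0.13 and 0.05 ± 0.17 in LSK.

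**Figure D3:**
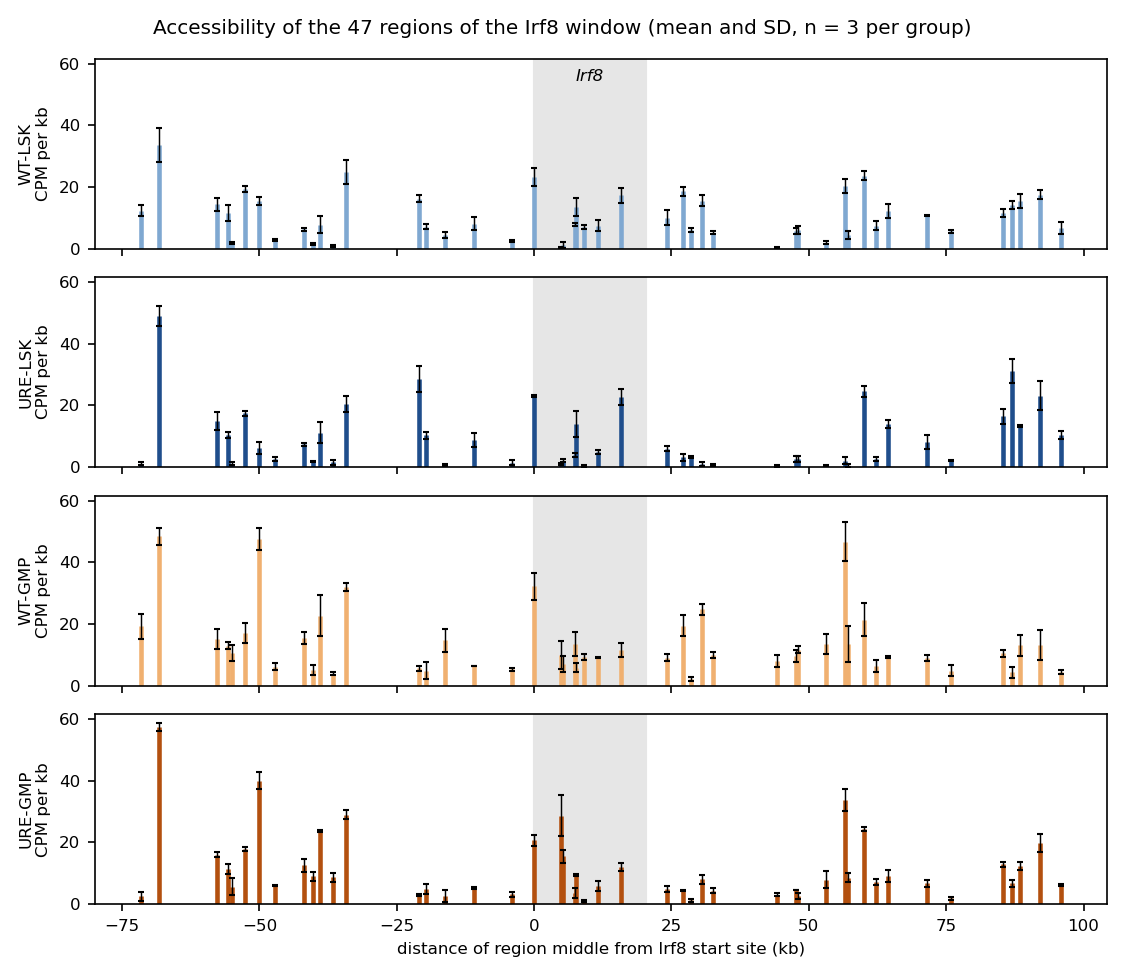
Mean CPM per kb of region length (y axis, bars, with SD of 3 libraries) is plotted for the 47 regions against distance from the Irf8 start site in kb (x axis), 1 panel per group, with the gene shaded. In both GMP panels the bars of the -50 and +56.6 kb regions are the tallest after the Emc8-Cox4i1 promoter, and in URE-LSK the bar of the +56.6 kb region is down to 2.02 CPM per kb.

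Without the 2 regions at Emc8 and Cox4i1, the 45 other regions of LSK libraries summed to 208 ± 10.8 CPM for WT and 189 ± 7.02 for URE (mean ± SD, n = 3). In GMP libraries they summed to 311 ± 13.1 CPM for WT and 260 ± 11.6 for URE. The -50 kb region held 8.03% ± 0.378 of these counts in WT-LSK against 3.51% ± 0.991 for URE-LSK, but in GMP it held 16.6% ± 0.709 for WT and 16.8% ± 0.451 for URE. The share of the +56.6 kb region was 7.81% ± 1.12 in WT-LSK against 0.854% ± 0.474 for URE-LSK, and 12.1% ± 1.99 and 10.4% ± 0.791 in the GMP groups.

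To set the enhancers against the promoter without any scaling between libraries, the count of each landmark region was divided by the promoter count of its library. At -50 kb this ratio was 0.723, 0.943 and 0.863 in WT-LSK against 0.257, 0.281 and 0.464 for URE-LSK, a log2 difference of -1.38. In GMP it was 1.75, 1.86 and 1.99 in WT and 2.36, 2.39 and 2.56 in URE, a log2 difference of 0.38 (exact two-sided permutation p = 0.1 in each cell type). The groups did not overlap, and 0.1 is the smallest p that 3 libraries against 3 allow. The rise in GMP went with the lower promoter there: with the summed count of all 47 regions, Emc8 and Cox4i1 included, as the denominator the difference was -0.05 (exact permutation p = 0.4). Without the regions at Emc8 and Cox4i1, the share of the -50 kb region was 16.6% in WT-GMP and 16.8% in URE-GMP.

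At +32.5 kb the LSK ratio was 0.160, 0.175 and 0.169 for WT against 0.0140, 0.0376 and 0.0185 for URE. In GMP the values were 0.222, 0.232 and 0.249 against 0.150, 0.172 and 0.143. The log2 differences were -2.98 and -0.60 (exact two-sided permutation p = 0.1 each). At +56.6 kb it was 0.616, 0.895 and 0.964 in WT-LSK against 0.0362, 0.0752 and 0.134 for URE-LSK, a log2 difference of -3.50 (exact permutation p = 0.1). In GMP its values of 0.986, 1.52 and 1.62 in WT and 1.38, 1.51 and 1.66 in URE overlapped (log2 difference 0.17, exact permutation p = 0.7).

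**Figure D4:**
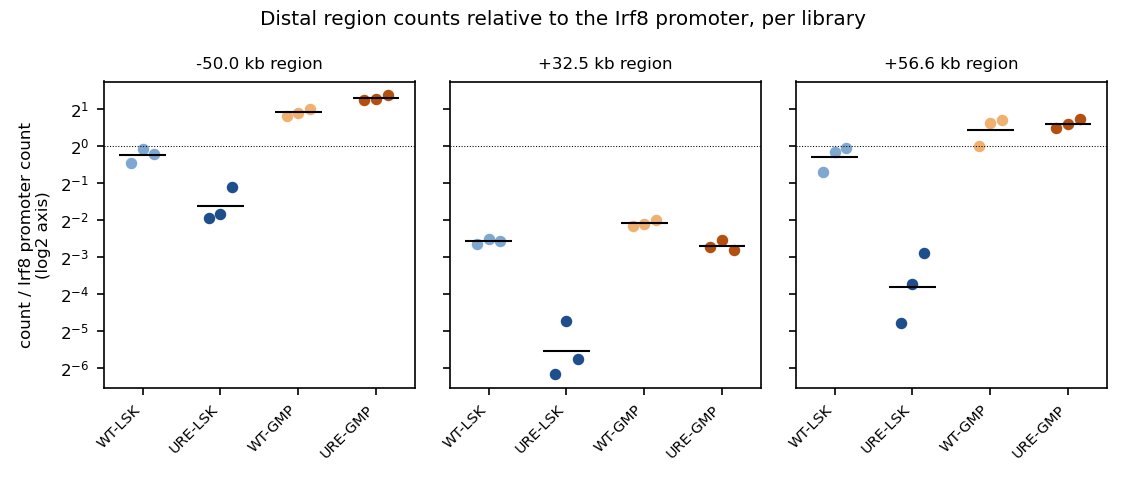
The count of the -50, +32.5 and +56.6 kb regions divided by the Irf8 promoter count is plotted per library on a log2 axis (points, with the mean of the log values as a line) for the 4 groups, and the dotted line marks equal counts. URE-LSK libraries lie lowest in all 3 panels, and at +56.6 kb the WT-GMP and URE-GMP points overlap.

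Of the 6 regions with a PU.1 match, 4 were called lower in LSK (66.7%) and 2 in GMP (33.3%), against 10 (24.4%) and 9 (22.0%) of the 41 without one. Over the whole table, 51.9% of the 12706 regions with this match were called lower in LSK and 47.2% in GMP, against 20.7% and 21.3% of the others. Among the members the 2 without a call in either cell type were the +24.1 and +88.5 kb regions. The strongest losses in LSK, at +30.5 and +9.1 kb, were in regions with no match to these letters.

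The regions at promoters whose log2 CPM followed these regions most closely over the 12 libraries were then listed from 17521 candidates at coding genes. For the -50 kb region they were Mmp8, a neutrophil collagenase (Pearson r = 0.996), Card9, an adaptor of C-type lectin signalling (0.995), Ubash3b (0.995), Raet1e (0.993) and Arhgef40 (0.992). For the +56.6 kb region they were 1700019D03Rik (0.993), Lyz2, which encodes lysozyme (0.992), Fyb (0.991), Card9 (0.989) and Tyrobp, an adaptor of activating myeloid receptors (0.988). For the Irf8 promoter the likeness was weaker, with Col15a1 (0.965), Bbc3 (0.950), Med21 (0.945), Nkx6-1 (0.938) and Hesx1 (0.934). The points of these correlations share 4 groups, so they mostly describe the group means.

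For context, regions within 5 kb of a start site of other genes of the pathway were counted. The 8 other IRF genes had 31 regions, of which 13 were called lower and 1 higher in LSK and 11 lower and 1 higher in GMP, with median log2 fold changes of -0.67 and -0.62. The lower calls made up 41.9% and 35.5%, where 23.9% and 24.1% of all regions were lower and the medians of all regions were 0.14 and 0.06. At Irf5, a factor of inflammatory macrophages, 5 of 6 regions were called lower in LSK and 4 in GMP. Its region with the smallest p in LSK went from 23.1 ± 0.838 CPM in WT to 6.48 ± 1.64 in URE (SD, n = 3). Irf4, the closest relative of Irf8, had 1 region, with 14.5 ± 0.599 CPM in WT-LSK against 5.48 ± 0.971 for URE-LSK (log2 fold change -1.40 ± 0.18, edgeR adjusted p = 6.59e-06), and -0.86 ± 0.18 in GMP, short of the fold threshold. None of the 3 regions at Irf3, an activator of interferon genes, was called in either cell type.

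Among 8 known IRF8 target genes with 34 regions, 22 were called lower and 2 higher in LSK and 16 lower and 2 higher in GMP (medians -1.66 and -0.80). The share called lower was 64.7% in LSK and 47.1% in GMP, beside the same 23.9% and 24.1% of all regions. At Psap, a gene for a lysosomal precursor protein, 5 of 6 regions were called lower in each cell type. At Ciita, the activator of MHC class II genes, 3 of 4 were, the one with the smallest p having 2.79 ± 0.225 CPM in WT-LSK against 0.224 ± 0.0104 for URE, and 1.72 ± 0.443 against 0.128 ± 0.0565 CPM for GMP. Il12b, the gene for the shared subunit of interleukins 12 and 23, had 2 regions and no call.

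The 11 other factors of monocytes and dendritic cells had 66 regions, with 13 lower and 2 higher in LSK and 13 lower and 4 higher in GMP, and medians of 0.17 and -0.15. Their share of lower calls, 19.7% in each cell type, was under that of all regions (23.9% and 24.1%), and so was the share of higher calls (3.03% and 6.06%, against 13.6% and 15.6%). Spib, a relative of PU.1 used by plasmacytoid dendritic cells, had a region with 8.53 ± 1.44 CPM in WT-LSK against 0.726 ± 0.204 for URE (log2 fold change -3.54 ± 0.32, edgeR adjusted p = 1.88e-07), and 8.75 ± 1.48 against 2.92 ± 1.35 CPM for GMP (-1.58 ± 0.28, edgeR adjusted p = 0.000163). Batf3, the partner of IRF8 in classical dendritic cells, went the other way at 1 of its 4 regions, with 0.395 ± 0.0130 CPM in WT-LSK against 3.13 ± 0.732 for URE (2.99 ± 0.36, edgeR adjusted p = 3.15e-06), and 0.879 ± 0.517 against 1.77 ± 0.127 CPM for GMP (1.09 ± 0.33, edgeR adjusted p = 0.0100). No region at Klf4 or Id2 was called in either cell type. The signs of these list medians were the same under each of the other scalings and in DESeq2. Against the median of all regions, however, the LSK median of this last list lay slightly above it as given (0.17 against 0.14) and below it with GC offsets (0.08 against 0.28).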

How the data were processed

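ATAC-seq was performed by the authors with the OmniATAC protocol. The deposited table holds raw counts, whole numbers per region and library that the authors had not normalized. By the methods of the study, reads had been placed on GRCm38 by bowtie2, and duplicate reads and those off the primary chromosomes had been dropped. Genrich peaks of each group had been merged. The submitters' processing notes also name cutadapt, bedtools and featureCounts. The counted unit, fragments or read ends, is not given in the sources used here, and table starts were assumed to count from 0. All 12 library columns were used.

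Counts of all 121336 regions were fitted in R 4.3.3 with edgeR 4.0.16 (TMM, 1 coefficient per group, quasi-likelihood test, two-sided, Benjamini-Hochberg adjustment over all regions, biological coefficient of variation 0.185). The filter filterByExpr removed no region. Alternatives were DESeq2 1.42.0, other scalings (RLE, library size only, loess with span 0.3, GC offsets; limma 3.58.1), a mean CPM of at least 2, no filter, no fold threshold, only the groups compared, the replicate number as a block, and leaving out each library. The fit was tested on simulated data. GENCODE M21 gave genes, leaving out the readthrough model Gm20388 that spans the window. SE is derived from the fold change and its test statistic.

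The window, landmarks and lists were chosen with earlier results of these data known. Some genes counted in the lists are not reported singly here. Regions described one by one were the promoter, those within 2500 bp of the landmarks, the Cox4i1 promoter, and per contrast the called member with the smallest p in each direction. Likeness was Pearson's r of log2(CPM + 0.1) at promoters with a mean CPM of at least 2. Deviations of same-numbered libraries from their group means correlated by 0.181, 0.191 and 0.207 between WT-LSK and WT-GMP, which met the criterion for pairing (over 0.1 in each pair), and not in each pair of the other contrasts. The labels do not tie libraries to mice across groups.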

Additional observations from a re-analysis of the deposited data

Results flagged for a closer look

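In 8 regions of the window the effect of the genotype differed between GMP and LSK by edgeR's interaction test (Benjamini-Hochberg adjusted p under 0.05). The difference, GMP minus LSK on the log2 scale, was 1.07 for the -50 kb region, 2.49 for the +30.5 kb region, 1.66 for the +32.5 kb region, 2.83 for the +56.6 kb region, 2.58 for the +57.2 kb region and 1.63 for the +62.2 kb region, where the loss was larger in LSK. It was -1.80 for the -20.9 kb region, where every URE library was above the WT libraries in LSK and below them in GMP. For the Irf8 promoter it was -0.64, with a lower level in URE in GMP and group means of 20.0 CPM in both LSK groups. GMP marker start sites summed to more CPM in URE-GMP than in WT-GMP (742 to 829 against 447 to 595). Most of this sum was Mpo, and Ms4a3 was lower in URE-GMP (mean CPM 11.8 against 16.9). The part of cell composition in the differences between GMP and LSK was not tested. Groups of 3 libraries are too small for a check of single outlying libraries.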

How the results depend on the processing

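With the replicate number as a block the number of called regions was 16 in LSK, the +4.9 kb region (1.44, adjusted p = 0.0295) being added to the 15, and no call changed in the other contrasts. Requiring a mean CPM of at least 2 left 31 of the 47 regions to test, and 7 were called in GMP, 10 at the step from LSK to GMP in WT and 12 at that step in URE. With no fold threshold 25 regions were called in GMP and 29 at the WT step. In GMP loess offsets gave 7 lower calls and library size only 15, where 11 are reported. Leaving out single libraries gave 14 to 19 calls for URE against WT in LSK, 14 to 17 in GMP, 18 to 19 and 20 to 24 at the steps in WT and URE, and 6 to 8 for the interaction. The regions called higher in LSK, 1 as reported, numbered 3 without URE-LSK replicate 1 or WT-LSK replicate 2, and 2 without WT-GMP replicate 3, and the interaction called lower in 2 regions without URE-GMP replicate 2.

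The LSK value of the Irf8 promoter (0.00) was -0.12 with library size only, -0.10 with loess offsets, -0.13 with GC offsets, -0.12 with the replicate block and GC offsets, -0.03 with a mean CPM of at least 2, -0.05 with only the groups compared, and -0.14 to 0.04 without single libraries. The interaction of the +4.9 kb region (0.07) was -0.01 with GC offsets and -0.31 to 0.38 without single libraries. The enhancer to promoter ratio in GMP at -50 kb (0.38) was -0.05 against the summed count of all 47 regions. That at +56.6 kb (0.17) was -0.26 against the same sum, and -0.05 to 0.31 without single libraries, the lowest without WT-GMP replicate 1. The cause of these changes was not tested. Over all regions the median log2 fold change ranged from 0.02 to 0.28 in LSK and from -0.06 to 0.20 in GMP across the scalings. In the thinnest regions, with up to 16 counts in LSK libraries, depth limits the estimates.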
